A study of Mus musculus with 3 samples.

Results

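The genes described here are 9 markers of T, NK and B lymphocytes: Cd3e, Cd3g, Cd8a, Nkg7, Gzma, Gzmb, Cd79a, Cd79b and Ms4a1. They were taken as a fixed list of names, chosen with earlier results of these data known. Counts over them and over the other lists, set beside shares of all genes, are therefore descriptive only. Each gene was represented by all of its probes that are not controls. This gave 11 probes of the 55681 on the array and 9 genes of the 20284 that could be named. Cd8a and Nkg7 had 2 probes each. Both Nkg7 probes and the probes of 6 other genes, 8 probes in all, were well above background on all 3 arrays. Neither probe of Cd8a was above background on any array, and Cd79a was above background on the 2SA array alone.

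The data came from 3 one-colour Agilent arrays of whole liver, 1 per group, from mice of the strain c57BL6/J. All 3 groups received plasmid by hydrodynamic tail vein injection (HTVi), a rapid injection of a large volume that itself injures the liver, and the livers were taken at 2 days. The plasmid carried human YAP in its wild-type form (WT) or as 1 of the active mutants 1SA and 2SA, and per the study's methods the insert was driven by an AFP enhancer and a minimal albumin promoter, which confine expression to hepatocytes. The YAP-expressing cells are a mosaic among untransfected hepatocytes, and the mice of the HTVi experiments were young adult males. WT is the control and carries the injection and the vector as well, so no array shows an uninjected liver. How many animals gave the RNA of an array is not stated in the labels or methods. With 1 array per group there is no replicate check, no test between groups was possible and no p-value was computed.

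YAP is a transcriptional coactivator held in the cytoplasm by the Hippo pathway. T cells recognise antigen through a receptor whose signal is carried by the CD3 chains, with CD8 as the coreceptor of cytotoxic T cells. NK cells and cytotoxic T cells kill with granules that hold perforin and granzymes, and the mouse liver is rich in NK cells, innate-like lymphocytes and T cells resident in the sinusoids. B cells signal through an antigen receptor that pairs surface immunoglobulin with CD79A and CD79B, and carry CD20, the product of Ms4a1. The question asked of these genes was whether transcripts of lymphocytes differed between livers expressing WT and active YAP.

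A level here is the log2 intensity of a probe minus the log2 of the 75th percentile of its own array, and a difference is the level on 1 array minus that on another. Intensities are given as deposited, before that scaling. The only repeat measurement was the set of 399 probes printed as 10 spots each. The SD between spots was read from the 51 such probes nearest in brightness, and a difference is called beyond the spot limit when it exceeds 2 SD of the difference between such spots. The limit says nothing of how far animals differ from each other. The number of arrays limits the precision. A 2-fold threshold was used as well. In bulk liver, fewer cells of a type and less RNA per cell cannot be told apart.

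The liver identity of the arrays was clear, since all 10 hepatocyte genes examined were above background on every array, summing to 4850, 5150 and 4240 times the 75th percentile on WT, 1SA and 2SA. The 75th percentile itself was 290.8, 275.7 and 319.5 in that order. The number of probes above background was 28972, 29705 and 30784 in the same order. No spot was saturated and all 3 arrays lay on 1 slide.

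Gzma and Gzmb differed most among the 9 genes. Both were lowest in the 1SA liver and highest in the 2SA liver, with WT between. Cd3g had the same order with smaller differences and a dimmer signal. Nkg7 had that order with both of its probes, but its brighter probe differed by no more than the spot limit in any comparison. The B cell genes Cd79b and Ms4a1 stayed within the spot limit in every comparison, and Cd3e differed beyond it only between the mutants, in the opposite direction. The plot of levels by array shows all 11 probes.

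**Figure D1:**
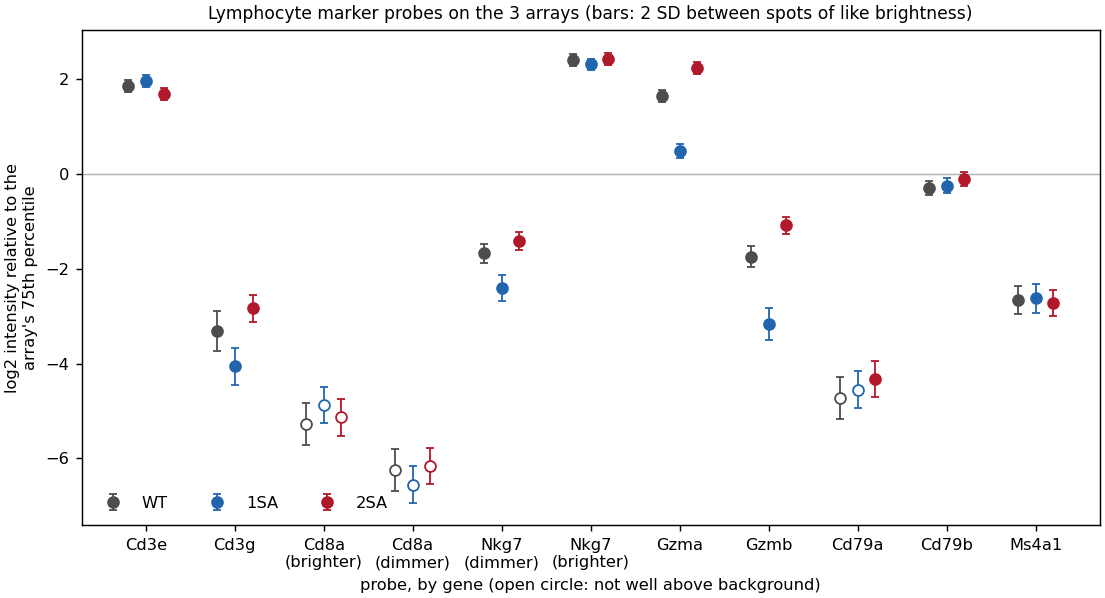
Level of each probe of the 9 genes on the WT (grey), 1SA (blue) and 2SA (red) arrays, as log2 intensity relative to the array's 75th percentile; bars are 2 SD between spots of like brightness and open circles are probes not well above background. Gzma runs from 0.48 on 1SA to 2.23 on 2SA and Gzmb from -3.17 to -1.09, while the bars of the 3 arrays overlap for Cd79b and for Ms4a1.

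Gzma encodes granzyme A, a serine protease of cytotoxic granules. Its probe read intensities of 908 (WT), 385 (1SA) and 1500 (2SA), and the scanner software gave errors of 90.9, 38.6 and 150 for these spots. The 3 values were separated by several times these errors. On the log2 scale its levels were 1.64 (WT), 0.48 (1SA) and 2.23 (2SA). The difference of 1SA from WT was -1.16, which is 2.24-fold lower and beyond a spot limit of 0.19. The difference of 2SA from WT was 0.59 (1.5-fold higher, spot limit 0.17). Between the mutants the difference was 1.75, or 3.35-fold higher in 2SA with a spot limit of 0.19. Of 13675 genes measured on both arrays, Gzma ranked 94 from the lowest in 1SA against WT, and of 13873 genes it ranked 66 from the highest in 2SA against 1SA. Against WT, 2SA placed it 533 from the highest of 13785 genes.

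Gzmb encodes granzyme B, the granule protease that activates caspases in target cells. It read 86.5 in the WT liver, 30.7 in 1SA and 151 in 2SA, with scanner errors of 9.34, 4.24 and 15.3. This probe was much closer to background than that of Gzma, and its raw median brightness on the 1SA array was 47 over a local background of 21. The difference of 1SA from WT was -1.42 (2.67-fold lower, spot limit 0.40), and that of 2SA from WT was 0.66 (1.58-fold higher, spot limit 0.29). Between the mutants it was 2.08, or 4.23-fold higher in 2SA with a spot limit of 0.39. Gzmb ranked 43 from the lowest of all genes in 1SA against WT, 402 from the highest in 2SA against WT and 39 from the highest in 2SA against 1SA. Its size rested on the handling of background: under normexp correction with an offset of 50, the difference of 1SA from WT was -0.60 and that between the mutants 0.94, both under 2-fold, whereas Gzma kept -1.09 and 1.62. Both granzymes have relatives of similar sequence, and the probe sequences were not used here to tell how well the probes keep them apart.

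Gzma and Gzmb shared the order of the arrays with Cd3g and the dimmer Nkg7 probe, so the stretches around their starts are shown. They are the 300 bases from 250 before to 50 after the RefSeq gene start in build GRCm38.p6, 5′ to 3′ along the gene. Gzma is at chr13:113100932-113101231, Gzmb at chr14:56262285-56262584, Cd3g at chr9:44980382-44980681, all on the minus strand, and Nkg7 is at chr7:43436888-43437187 on the plus strand. Capitals mark matches, on either strand, to the motifs TGTGGT (Runx factors), GGTGTG (T-box factors), GGAAGT (ETS factors), TGANTCA (AP-1), TGACGTCA (the CRE) and ATGCAAAT (the octamer of B cell genes).
Gzma: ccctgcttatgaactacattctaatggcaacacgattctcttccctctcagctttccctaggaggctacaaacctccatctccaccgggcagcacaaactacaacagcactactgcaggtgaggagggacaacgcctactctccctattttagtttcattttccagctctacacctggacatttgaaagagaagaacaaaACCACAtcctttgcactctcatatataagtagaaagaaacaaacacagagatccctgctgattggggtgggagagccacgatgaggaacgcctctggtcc
Gzmb: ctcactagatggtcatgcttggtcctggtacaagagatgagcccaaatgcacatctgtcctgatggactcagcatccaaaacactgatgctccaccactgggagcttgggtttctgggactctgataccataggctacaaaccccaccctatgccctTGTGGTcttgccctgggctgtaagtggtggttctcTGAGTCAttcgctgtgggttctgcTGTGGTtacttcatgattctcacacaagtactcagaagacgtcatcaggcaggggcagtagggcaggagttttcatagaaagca
Cd3g: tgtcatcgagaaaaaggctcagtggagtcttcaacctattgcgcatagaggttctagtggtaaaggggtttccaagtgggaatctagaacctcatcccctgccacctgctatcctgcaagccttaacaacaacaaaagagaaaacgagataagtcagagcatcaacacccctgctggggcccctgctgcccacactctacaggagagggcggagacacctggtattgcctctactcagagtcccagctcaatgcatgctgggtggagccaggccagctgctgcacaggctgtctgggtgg
Nkg7: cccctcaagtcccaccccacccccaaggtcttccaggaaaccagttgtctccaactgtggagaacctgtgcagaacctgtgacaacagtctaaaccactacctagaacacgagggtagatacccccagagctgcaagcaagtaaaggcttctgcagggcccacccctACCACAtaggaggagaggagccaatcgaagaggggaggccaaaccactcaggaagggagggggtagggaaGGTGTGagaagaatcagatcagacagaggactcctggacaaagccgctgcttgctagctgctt

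Of the 9 genes, 7 had such a stretch in the RefSeq table, namely these 4 with Cd3e, Cd8a and Cd79a. The Runx letters were found in 3 of the 7, Gzma, Gzmb (at 2 places) and Nkg7, and in 16.7% of 32544 distinct promoters of the same length. The T-box letters were found in Nkg7 alone of the 7 and in 19.0% of all promoters. The AP-1 letters were found in Gzmb alone and in 7.79% of all, and the ETS letters in Cd3e and Cd79a and in 23.7% of all. The CRE and octamer letters were in none of the 7 and in 1.8% and 1.75% of all promoters. No marked match overlapped another. A match is a run of letters and not a measured binding site.

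Cd3g and Cd3e encode the gamma and epsilon chains of the CD3 complex. Cd3g was dim, reading 29.4 in the WT liver, 16.6 in 1SA and 44.8 in 2SA, with scanner errors of 4, 2.78 and 4.96. The 1SA value was the lowest and the 2SA value the highest. Its difference was -0.75 for 1SA against WT, beyond a spot limit of 0.57, and 0.47 for 2SA against WT, within a limit of 0.51. Between the mutants it was 1.22, or 2.33-fold higher in 2SA (spot limit 0.48). Under normexp the difference between the mutants was 0.32.

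Cd3e did not share that order. Its probe read 1050 on WT, 1070 on 1SA and 1030 on 2SA, with scanner errors of 105, 107 and 103, so that the 3 intensities overlapped within these errors. Its 1SA level differed from WT by 0.10 and its 2SA level by -0.16, both within the spot limit of 0.17. From 1SA to 2SA it was -0.26, or 1.2-fold lower, beyond a limit of 0.17. Cd3e and Cd3g encode subunits of the same complex, and their probes differed in opposite directions between the mutants. For Cd3e most of that difference came with the scaling. Its intensities of 1070 and 1030 were nearly equal, while the 75th percentiles were 275.7 on 1SA and 319.5 on 2SA. On WT the Cd3e probe read 1050 and the dim Cd3g probe 29.4. How well either probe follows its transcript was not tested.

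Cd8a, the alpha chain of the CD8 coreceptor, was not well above background with either probe. One probe read intensities of 7.48, 9.39 and 9.09 on WT, 1SA and 2SA. The other, printed as 10 spots, averaged 3.86, 2.94 and 4.49 in the same order, with 9, 10 and 9 spots kept, and its own spots scattered with an SD of 0.35, 0.33 and 0.57 on the log2 scale. No fold is given for these values. Cd8b1, the beta chain of CD8, was above background on each array with intensities of 20.8, 21.1 and 24.5, and its difference was 0.10 in 1SA and in 2SA against WT, within a spot limit of 0.59.

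Nkg7, a membrane protein of cytotoxic granules in NK and T cells, gave unlike values with its 2 probes. The brighter probe read 1530 on WT, 1370 on 1SA and 1720 on 2SA, with scanner errors of 153, 137 and 172. These values lay close together, and the differences of -0.09, 0.03 and 0.12, for 1SA against WT, 2SA against WT and 2SA against 1SA, were all within spot limits of 0.17 to 0.18. The dimmer probe read 91.2 on WT, 52 on 1SA and 120 on 2SA, with scanner errors of 9.51, 5.65 and 12.2. Its difference was -0.73 in 1SA against WT, beyond a limit of 0.34, 0.26 in 2SA against WT, within a limit of 0.28, and 0.99 in 2SA against 1SA, beyond a limit of 0.33. Both probes carry the same RefSeq entry, and which one follows the transcript better was not tested. Across the array, 3346 genes had 2 or more probes measured on all arrays, and their differences were more than 0.5 apart for 6.69% of them in 1SA against WT, 6.63% in 2SA against WT and 7.95% in 2SA against 1SA. The Nkg7 probes were among these in 1SA against WT, at -0.09 and -0.73, and in 2SA against 1SA, at 0.12 and 0.99.

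Of the 3 B cell genes, the 2 measured on all arrays differed by less than the spot limit. Cd79b, a signalling chain of the B cell receptor, read 236 on WT, 233 on 1SA and 296 on 2SA, with scanner errors of 23.8, 23.4 and 29.7. Its differences of 0.06, 0.19 and 0.14, for 1SA against WT, 2SA against WT and 2SA against 1SA, were within spot limits of 0.21 to 0.22. Ms4a1, which encodes CD20, read 46.1, 44.7 and 48.4 on WT, 1SA and 2SA, with scanner errors of 5.78, 5.27 and 5.53. Its differences were 0.03, -0.07 and -0.10, and its spot limits of 0.41 to 0.43 leave room for changes of up to about that size. Cd79a, the partner of Cd79b, read 11 on WT, 11.8 on 1SA and 16 on 2SA, and was well above background on 2SA only. Its level there was at least 1.16-fold that of WT and at least 1.17-fold that of 1SA, against the lowest measured signal or the dim value of those arrays. These bounds are close to 1 and say little about the size of a difference.

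**Figure D2:**
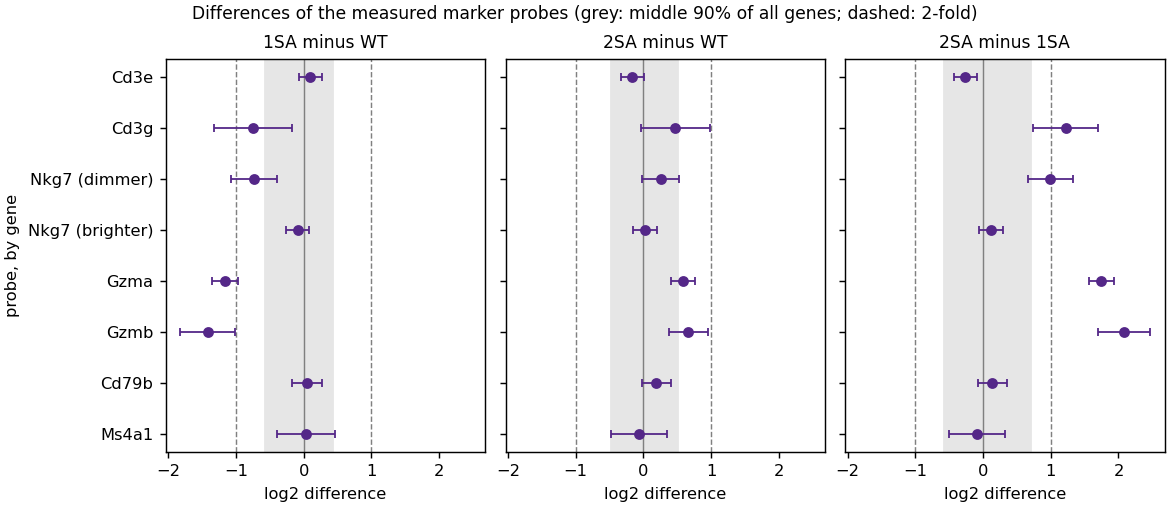
Difference in log2 level for each probe measured on both arrays, in 1SA minus WT, 2SA minus WT and 2SA minus 1SA; bars are the spot limit, grey bands the middle 90% of all genes and dashed lines a 2-fold difference. Gzma and Gzmb lie at -1.16 and -1.42, at 0.59 and 0.66, and at 1.75 and 2.08 in the 3 panels, outside the grey band in each, and the brighter Nkg7 probe, Cd79b and Ms4a1 lie near 0.

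In 1SA against WT, 2 of the 7 measured genes were at least 2-fold lower, Gzma and Gzmb, where 1.14% of 13675 genes were, and none was 2-fold higher, where 0.739% were. Beyond the spot limit, 3 of 7 were lower, these and Cd3g, where 17.0% of all genes were, and none was higher, where 15.8% were. The median difference of the 7 genes was -0.09, against -0.002 for all genes. That median was the value of the brighter Nkg7 probe itself, and with the dimmer probe it became -0.73.

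In 2SA against WT, no gene of the 7 was 2-fold apart, where 1.15% of 13785 genes were higher and 0.573% lower. Gzma and Gzmb were higher beyond the spot limit, where 14.4% of all genes were, and none was lower, where 18.6% were. The median was 0.19, against -0.03 for all genes. In 2SA against 1SA, 3 of 7 genes were at least 2-fold higher, Gzma, Gzmb and Cd3g, where 2.49% of 13873 genes were, and none was 2-fold lower, where 1.17% were. Beyond the spot limit these 3 were higher, where 19.6% of all genes were, and Cd3e was lower, where 24.5% were. The median was 0.14, against -0.03 for all genes, and 0.99 with the dimmer Nkg7 probe. The comparisons share arrays, WT in the first pair and each mutant with the third, so they are not separate evidence of a direction.

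Other genes of the same 3 lineages, listed beside the 9, showed where the granzymes stood among cytotoxic genes. The list of NK and cytotoxic genes held 30 names, of which Cd244 had no probe, 13 were above background on all 3 arrays, 9 on some and 7 on none. Ncr1, which encodes the NK receptor NKp46, was among the 7 with none, together with Klrg1, Eomes, Cd160, Cd226, Itga2 and Il18rap. On the 2SA array 22 of these genes were above background, against 14 on WT and 14 on 1SA. Of all 20284 named genes, 14448 were on 2SA, 13975 on WT and 14101 on 1SA. The lowest level marked above background was -5.75 on 2SA, -4.54 on WT and -4.75 on 1SA, so dimmer signals passed on 2SA. The part of this in the counts was not tested. The summed intensity of the 13 genes was 16.1 (WT), 6.81 (1SA) and 22.5 (2SA) times the 75th percentile, and most of each sum was Ccl5. Of the 13 genes measured throughout, 10 were lowest on 1SA, as were 34.4% of the 13626 genes measured on all 3 arrays. Their median difference was -0.36 in 1SA against WT, and over the genes measured on both arrays it was 0.20 in 2SA against WT and 0.66 in 2SA against 1SA. In this last comparison 4 of 14 were at least 2-fold higher, where 2.49% of all genes were, and none was lower, where 1.17% were. Beyond the spot limit 9 were higher, where 19.6% of all genes were.

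Those 4 were Ccl5, Klra4, Klra8 and Xcl1. Ccl5, a chemokine made by cytotoxic lymphocytes and also by other cells, read 3810 (WT), 1150 (1SA) and 6080 (2SA). Its differences were -1.65 in 1SA against WT (spot limit 0.17), 0.54 in 2SA against WT (limit 0.15) and 2.19 in 2SA against 1SA (limit 0.16). Klra4, an Ly49 receptor of NK cells, read 45.4, 21.7 and 84.6 in the order WT, 1SA and 2SA, with differences of -0.99, 0.76 and 1.75. Klra8, another Ly49 receptor, read 53.3, 30.9 and 99.9, with differences of -0.71, 0.77 and 1.48, and its other measured probe gave -0.54, 0.92 and 1.46. The Ly49 genes are near-identical copies, so their probes may read each other's transcripts. Xcl1, a chemokine of NK and CD8 T cells, read 27.9, 15.7 and 41.4, with differences of -0.76, 0.43 and 1.19. All of these had the order of the granzymes, but for Xcl1 the difference of 2SA from WT was within its spot limit of 0.55. Klra4, Klra8 and Xcl1 were dim, and how far normexp would shrink their differences was not tested.

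The other cytotoxic genes measured on both mutant arrays were less than 2-fold apart there, and some had other orders. Prf1, which encodes perforin, the pore-forming partner of the granzymes, read 181 on WT, 157 on 1SA and 199 on 2SA, and its differences of -0.12, 0.01 and 0.13 lay within spot limits of 0.23 to 0.24. Il2rb, a chain of the receptor for IL-2 and IL-15, read 56.9, 38.7 and 74.1, with differences of -0.48, 0.24 and 0.73, the first and the third beyond their limits of 0.42 and 0.39. Klrb1c, which encodes NK1.1, was not well above background on WT at 11.1, and read 18.5 on 1SA and 40.6 on 2SA. It was at least 2.96-fold higher in 2SA than in WT and at least 1.56-fold higher in 1SA than in WT, so for this gene WT and not 1SA was the lowest array.

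**Figure D3:**
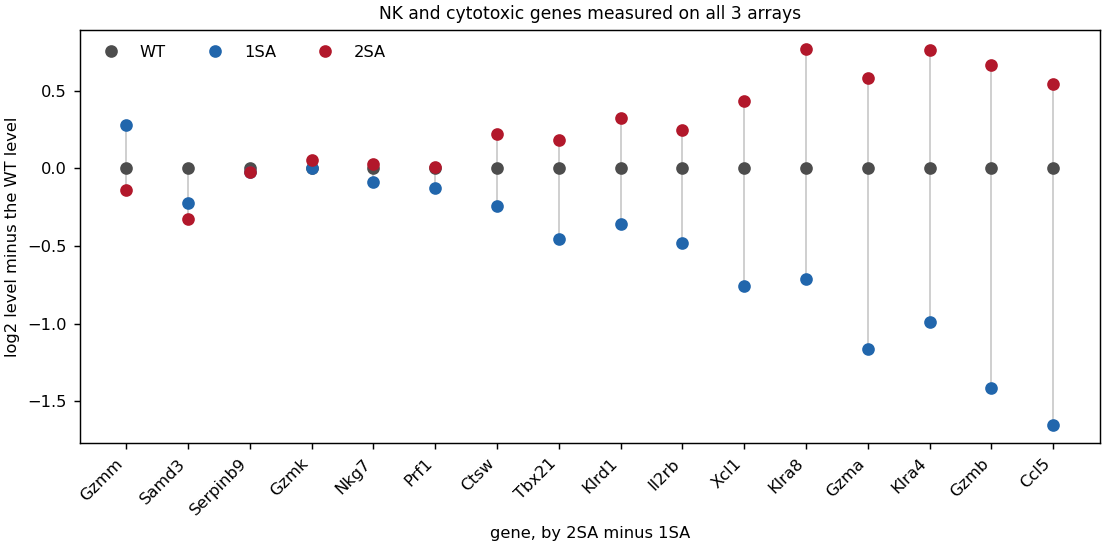
Level relative to WT, on the log2 scale, of Nkg7 (brighter probe), Gzma, Gzmb and the NK and cytotoxic genes measured on all 3 arrays, ordered by the difference between 2SA and 1SA; points are the WT (grey), 1SA (blue) and 2SA (red) arrays. From Ctsw to Ccl5 the 1SA point is below WT and the 2SA point above it, with Ccl5 spanning 2.19 and Gzmb 2.08, while the points of Prf1 lie 0.13 apart.

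The T cell list did not move as a block. Of its 30 genes, 18 were above background on all arrays, 4 on some and 8 on none, and the 8 included Cd247, the zeta chain of the receptor complex, at intensities of 2.76, 2.33 and 3.87. The median difference was -0.17 in 1SA against WT, 0.01 in 2SA against WT and 0.13 in 2SA against 1SA. Between the mutants, 2 of 18 genes were at least 2-fold higher and 1 was lower, beside 2.49% and 1.17% of all genes. Those higher were Cd2, an adhesion receptor, at 79.6 (WT), 56.8 (1SA) and 140 (2SA) and 2.14-fold higher in 2SA, and Cd28, the costimulatory receptor, at 33, 20 and 52.9 and 2.28-fold higher in 2SA. The lower one was Icos, another costimulatory receptor, at 71.6, 71.1 and 35, with differences of 0.07, -1.17 and -1.23, and its dimmer probe gave -0.13, -0.63 and -0.50.

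Themis, a thymocyte signalling adaptor, read 54.7, 22.3 and 14.3 on WT, 1SA and 2SA. It was lower in both mutants, by differences of -1.22 and -2.07. Tcf7, a transcription factor of naive T cells, read 26.4, 32.4 and 21.2, and its difference of -0.83 in 2SA against 1SA was beyond a limit of 0.51. Themis, Tcf7, Icos and Cd28 were dim, and how far normexp would shrink their differences was not tested. Cd3d, the delta chain of CD3, read 48.4, 46.3 and 79.8, which put 2SA above WT by 0.59 and above 1SA by 0.57, both beyond the limits of 0.38 and 0.37, with 1SA and WT 0.01 apart. The probes of the 3 CD3 chains had 3 different patterns over the arrays, with those of Cd3g and Cd3d much dimmer than that of Cd3e. Cd4, the coreceptor of helper T cells that some macrophages and dendritic cells also carry, read 11500, 9480 and 9300 with its brighter probe and 23.2, 19.4 and 20.1 with its dimmer one. Its differences with the brighter probe were -0.20, -0.44 and -0.24.

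The B cell list had medians near 0, with genes on both sides. Of its 29 genes, 21 were above background throughout, 5 on some arrays, and Pax5, Ebf1 and Blk on none. The median difference was 0.002 in 1SA against WT, 0.09 in 2SA against WT and -0.003 in 2SA against 1SA. Beyond the spot limit, 2 of 21 were higher and 6 lower in 1SA against WT, where 15.8% and 17.0% of all genes were. In 2SA against WT, 5 of 23 were higher and 2 lower, where 14.4% and 18.6% of all genes were. In 2SA against 1SA, 8 of 21 were higher and 4 lower, where 19.6% and 24.5% of all genes were. Among the probes that stood for genes measured on both arrays of a comparison, the widest difference was that of Ly6d. It encodes a surface antigen of B cell precursors that epithelia also make. Its intensities were 3700 (WT), 1470 (1SA) and 4160 (2SA), with differences of -1.25, 0.03 and 1.29. Bcl11a had 2 measured probes that disagreed. The one that stood for the gene gave 0.09, 0.09 and -0.003. The other read 86.8, 18.4 and 25.5, with wider differences of -2.16, -1.90 and 0.26. Which one follows the transcript better was not tested.

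Fcrla, an intracellular Fc receptor-like protein of B cells, read 25, 44 and 39.3, and was higher in 1SA than in WT by 0.90. Fcmr, the receptor for IgM, read 42.3, 43.2 and 78.9, and was higher in 2SA than in WT by 0.76. Fcrla and Fcmr were dim, and how far normexp would shrink their differences was not tested. Btk, the kinase of the B cell receptor, which myeloid cells share, read 199, 136 and 249, with differences of -0.47, 0.19 and 0.66. Cd83, an activation marker of B cells and dendritic cells, read 619, 463 and 825, with differences of -0.34, 0.28 and 0.62. Of the 8 plasma cell genes 6 were measured, with medians of -0.11, -0.07 and 0.03. Jchain, the joining chain of secreted IgM and IgA, read 31.6, 26 and 27.3, with differences within the spot limits, and Derl3 and Sdc1, which differed most, are made by many secretory or epithelial cells.

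**Figure D4:**
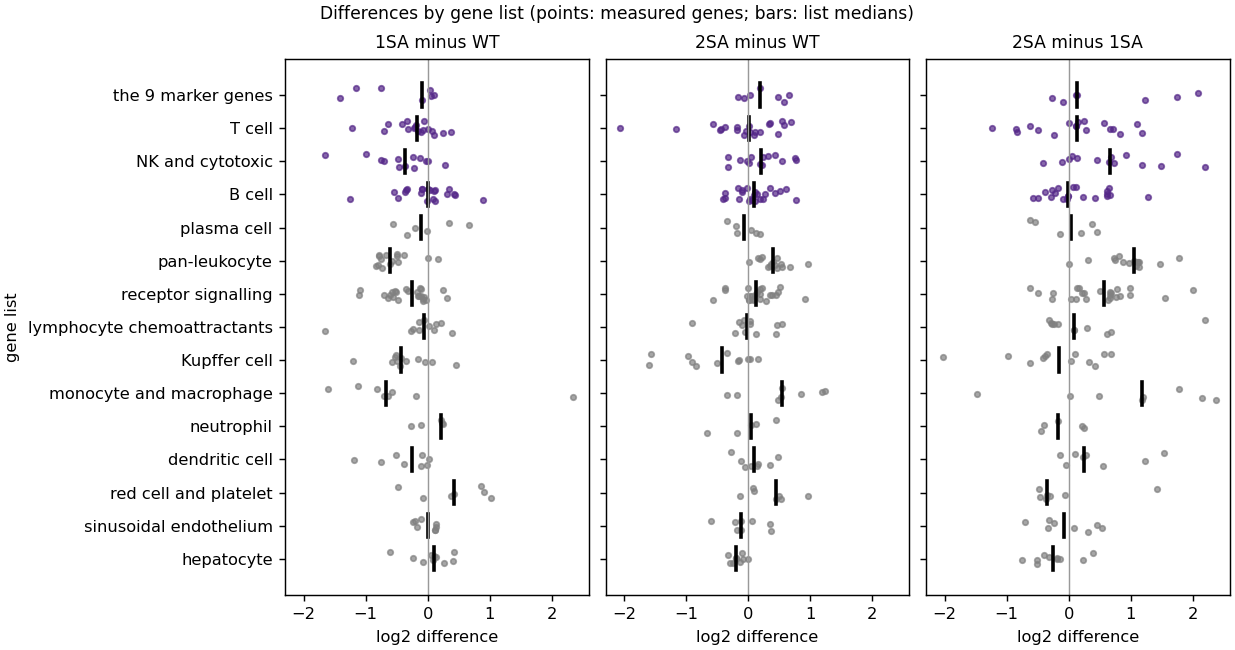
Difference in log2 level for each measured gene of 15 lists, in 1SA minus WT, 2SA minus WT and 2SA minus 1SA; points are genes, black bars list medians and the lymphocyte lists are in purple. The NK and cytotoxic median lies at -0.36, 0.20 and 0.66 and the B cell median at 0.002, 0.09 and -0.003, while the pan-leukocyte median lies at -0.61, 0.40 and 1.05.

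The 9 genes, with the T cell, NK and B cell lists, came to 98 genes, of which 59 were measured on all 3 arrays. Of these 59, 33 were lowest on 1SA, 15 on 2SA and 11 on WT, where the shares of all 13626 genes were 34.4%, 42.1% and 23.6%. Between the mutants, 10 of 60 were at least 2-fold higher and 1 was lower, beside 2.49% and 1.17% of all genes, and in 1SA against WT, 5 of 59 were lower and none was higher, beside 1.14% and 0.739%. Against WT, 2SA had 2 of 65 genes lower, Icos and Themis, and none higher, beside 0.573% and 1.15%. Those counts leave out genes measured on only 1 of the 2 arrays. Of these, Klrb1c and Klrc1 were at least 2.96-fold and 2.53-fold higher in 2SA than in WT. Tnfrsf13c and H2-DMb2 were at least 3.14-fold and 2.11-fold lower. Of the 98 genes, 67 were above background on WT, 60 on 1SA and 76 on 2SA. Of the 20284 named genes, 13975, 14101 and 14448 were, in the same order. The summed intensity of the 59 genes measured on all 3 arrays was 114 (WT), 89 (1SA) and 109 (2SA) times the 75th percentile. The bright Cd4 probe alone gave 39.6, 34.4 and 29.1 of these sums.

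Most genes that all leukocytes share had the array order of the granzymes. All 15 pan-leukocyte genes were measured, and 13 were lowest on 1SA and none on 2SA, beside 34.4% and 42.1% of all genes. Their median was -0.61 in 1SA against WT, 0.40 in 2SA against WT and 1.05 in 2SA against 1SA, and 8 of 15 were at least 2-fold higher in 2SA than in 1SA, where 2.49% of all genes were. Their summed intensity was 64.2 (WT), 44.8 (1SA) and 84 (2SA) times the 75th percentile. Ptprc, which encodes CD45, read 233, 145 and 369, with differences of -0.61, 0.53 and 1.14. Coro1a, an actin regulator of leukocytes, read 1540, 838 and 3310, with differences of -0.80, 0.97 and 1.77, and Lsp1, an actin-binding protein of leukocytes, had differences of -0.79, 0.67 and 1.46. The differences of Gzma and Gzmb in 2SA against 1SA, 1.75 and 2.08, were larger than that of Ptprc, while that of Coro1a exceeded Gzma. Those of Cd79b and Ms4a1, 0.14 and -0.10, were smaller than all of these.

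Myeloid genes also differed between these arrays. Of 10 monocyte and macrophage genes, Ly6c2 and Cd68 had no probe and the other 8 were above background on every array, 7 of them lowest on 1SA (34.4% of all genes), with medians of -0.67, 0.54 and 1.19 and summed intensities of 31.8, 22.7 and 40.4 times the 75th percentile on WT, 1SA and 2SA. Chil3 read 440, 191 and 1150, and its difference of 2.37 between the mutants exceeded those of both granzymes. Ccr2 went the other way at 141, 674 and 279. The 12 Kupffer cell genes had medians of -0.44, -0.42 and -0.15 and summed intensities of 330, 245 and 220, with Marco at 15300, 6260 and 5570 and Clec4f at 3170, 4120 and 1180. For 8 measured dendritic cell genes the medians were -0.25, 0.10 and 0.25 and the sums 434, 356 and 436, with Xcr1 not above background. Itgax read 450, 187 and 628 and Ccr9 76.6, 43.2 and 118. The 5 neutrophil genes measured throughout had medians of 0.22, 0.04 and -0.18, and sums of 10.4, 11.8 and 9.69, with Ngp and Cxcr2 not above background. S100a8 read 140, 156 and 209 and Retnlg 110, 86.4 and 76.1.

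Genes of red cells and platelets were not even either. This list, with 7 genes measured throughout, had medians of 0.43, 0.45 and -0.34 and summed intensities of 74.5, 127 and 98.1 on WT, 1SA and 2SA. Hbb-bt, an adult beta globin, read 4240, 8120 and 6720, and Pf4, a platelet chemokine, 867, 592 and 1850. The 8 sinusoidal endothelium genes had medians of 0.005, -0.11 and -0.08 and sums of 90.4, 95.4 and 76.4, with Lyve1 at 386, 325 and 548 and Clec4g at 8360, 8580 and 6090. The hepatocyte medians were 0.09, -0.20 and -0.25, with Cyp3a11 at 139000, 86700 and 132000 and Tat at 15200, 19400 and 13300. The part of these cell types in the values of the lymphocyte genes was not tested.

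Of 26 genes of antigen receptor signalling, 24 were measured on all arrays and 20 of these were lowest on 1SA (34.4% of all genes), with medians of -0.25, 0.13 and 0.57. Many of them also act in myeloid cells. Nfatc2, a transcription factor switched on by calcium, read 106, 46.8 and 218, with differences of -1.10, 0.91 and 2.00. It was 1 of the 2 of 24 genes at least 2-fold higher in 2SA than in 1SA, where 2.49% of all genes were. None was lower, where 1.17% were.

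Of 16 genes for signals that draw or sustain lymphocytes, Cxcl11, Ccl21a and Il12b had no probe, Il7 was not above background and 11 were measured throughout. Their medians were -0.06 in 1SA against WT and 0.08 in 2SA against 1SA. In 2SA against WT the median was -0.02 over the 12 genes measured on both arrays. These medians were near those of all genes. Cxcl10, a chemokine induced by interferon that attracts T and NK cells, read 1470, 1180 and 2200, with differences of -0.24, 0.44 and 0.68, all beyond spot limits of 0.17. Ccl5, which the list shares with the cytotoxic genes, was the only one of the 11 at least 2-fold apart in 2SA against 1SA. Of all genes, 2.49% were 2-fold higher there and 1.17% lower.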

How the data were processed

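Gene expression was measured in mouse liver on 3 one-colour Agilent arrays of 1 slide, 1 array per group. Spot intensity was extracted by the authors with Agilent Feature Extraction 10.10.1.1, per the file headers, and the deposited intensity is background-subtracted and not scaled between arrays. The deposited series matrix held the same intensity times 1 constant per array (3.02 for WT, 3.08 for 1SA, 2.81 for 2SA) and was used as an alternative. The design was placed on mm9.

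Non-uniform and population outlier spots were left out (181, 148 and 182 on WT, 1SA and 2SA), the log2 intensities of a probe's spots were averaged, and each array was set to its own 75th percentile over 59305 spots that are not controls. At least 50% of a probe's spots had to be marked well above background. Probes were named by RefSeq accession through a GRCm38.p6 gene table, which matched 26762 probes. The brightest probe measured on every array stood for a gene, or failing that its brightest one. Bounds used the higher of the lowest measured signal and the dim value.

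Named genes were the 9 members on every array, up to 5 genes per lymphocyte list and up to 2 per other list with the largest difference in any comparison, and 10 genes chosen by name; some of these genes are not reported here. The members and lists were chosen with earlier results of these data known. Alternatives were quantile normalisation, the array median, normexp with an offset of 50, the series matrix, no or a stricter filter on dim probes, the mean of probes and a 3-fold threshold. The plan was to run normexp on the means of spots, but medians were used because the files analysed held those. The code was checked on simulated arrays. Python 3.11.15, pandas 2.3.3, numpy 2.4.6, matplotlib 3.10.9, R 4.3.3 and limma 3.58.1 were used.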

Additional observations from a re-analysis of the deposited data

Results flagged for a closer look

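The mutants differed from WT in opposite directions, beyond the spot limit in both, for Gzma and Gzmb. The 2SA level exceeded the 1SA level by 1.75 for Gzma and by 2.08 for Gzmb on the log2 scale. With 1 array per group, this difference was not tested.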

How the results depend on the processing

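No paired analysis was possible because there was 1 array for each of WT, 1SA and 2SA, and for the same reason no array could be left out. The median difference of the 7 measured genes in 1SA against WT was -0.09, and it was 0.03 with no filter on dim probes (9 genes), -0.41 with the mean of a gene's probes and -0.73 with the dimmer Nkg7 probe. In 2SA against 1SA it was 0.14, and 0.55 and 0.99 under the last 2 of these. The count of genes at least 2-fold apart in 1SA against WT was 2, and was 1 under normexp, 1 under the stricter filter (4 genes left) and 0 at 3-fold. In 2SA against 1SA it was 3, and 1 under normexp and 1 under the stricter filter. Normexp adds the offset to every spot and so pulls dim values together. The median in 2SA against WT moved by less than the spot SD and its count stayed 0 under every alternative run. Of 162 recomputed values of single genes, 13 moved by more than the spot SD, all under normexp or another choice of Nkg7 probe. None that lay beyond the spot limit changed sign. Many of the 162 could not move, so the total is no measure of stability. The rescaled series matrix and the filters on dim probes leave a gene's own difference unchanged, and the mean of probes can change Nkg7 alone. Under normexp 7 values moved and 14 did not. The share of all genes past 2-fold was 1.88%, 1.72% and 3.66% in 1SA against WT, 2SA against WT and 2SA against 1SA. It was 0.724%, 0.631% and 1.49% under normexp, 6.61%, 6.46% and 7.52% with no filter, and 1.15%, 0.945% and 2.45% under the stricter filter. The unscaled series matrix and the dimmer Nkg7 probe were chosen after seeing the data. Among the 9 genes, dim signal limits Cd8a, Cd79a, Cd3g, Gzmb and Ms4a1.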
